A study of Mus musculus with 21 samples.

Results

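The 38 genes described here carry out or report on the unfolded protein response and quality control in the endoplasmic reticulum (ER). They were chosen by name from the 37734 genes listed, and every one of them was found and tested. They were split into an IRE1/XBP1 arm of 16 genes, an ATF6 arm of 13 and a PERK/ATF4 arm of 9. The split is a working one, since XBP1 and ATF6 share many target genes. Their mRNA was followed in conventional dendritic cells (cDCs), the cells that take up antigen and present it to T cells, of which cDC1 and cDC2 are the main subsets.

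All samples came from untreated C57BL/6 mice of 6 to 8 weeks, named C57Bl6/JRj in the study's methods. Cells positive for CD11c were enriched with magnetic beads and then sorted by flow cytometry. The cDC1 gate was CD24+ CD11b- and the cDC2 gate CD24- CD11b+, both among B220- cells. Immature cells were CCR7- Esam- and mature cells CCR7+ Esam+. The 6 groups were splenic cDC1 (4 samples, from 5 libraries), immature thymic cDC1 (4 samples), and splenic cDC2, immature thymic cDC2, mature thymic cDC1 and mature thymic cDC2 (3 samples each). Both splenic groups were immature, and mature splenic cells were not analysed here, so maturation could be compared in the thymus alone and the organs in immature cells alone. Each sample held cells of pooled mice, and the labels did not tie samples to separate pools, so p values measure the spread between these samples. Splenic cDC1 replicate 1 shared its library number with replicates 4 and 5. Immature thymic cDC1 replicates 3 and 4 shared library number, lane and index, but their reads differed more than those of any other pair of the group, and they were counted as 2 samples. Calls that were lost when samples of 1 library number were averaged are given with their genes.

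Values are normalized reads counts, that is the reads of a gene divided by a size factor of the library. Libraries held 14266867 to 40119669 reads, with 0.844% to 2.22% of them mitochondrial. All mature samples were sequenced in lane 8. The sorting was visible in the mRNA. Ccr7 averaged 110227 ± 18494 (SD, n = 3) and 99928 ± 13553 (n = 3) in mature cDC1 and cDC2, against 713.8 ± 179 (n = 4) and 3419 ± 682 (n = 3) in the immature thymic cells. The summed values of 5 cDC1 markers were 78004 to 89757 in splenic cDC1 and 2841 to 4238 in splenic cDC2. Of these 5 markers, 4 were lower and 1 higher in mature than immature thymic cDC1. Xcr1 was at 440.3 ± 164 (n = 3) in mature cDC1 and 19098 ± 2044 (n = 4) in immature thymic cDC1. Batf3 rose from 1427 ± 292 to 4998 ± 611. The summed markers were 40302 to 43791 in mature cDC1 and 14299 to 22307 in mature cDC2. Immature thymic cDC1 and cDC2 lay further apart, at 82514 to 91759 and 2818 to 4785. Irf8 made up most of the sums in mature cells, at 34273 ± 1504 in cDC1 and 13787 ± 3146 in cDC2 (SD, n = 3 each). In mature cDC2 Batf3 averaged 4532, and Xcr1, Clec9a and Cadm1 averaged 18.9, 36.0 and 101. The summed values of 4 cDC2 markers were 2107 to 3599 in mature cDC1 and 13891 to 17332 in mature cDC2. Summed values of 6 T cell genes were 0 to 4.61 in splenic cDC1, 74.9 to 132 in immature and 442 to 919.9 in mature thymic cDC1.

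Secreted and membrane proteins fold in the ER, and unfolded protein there is sensed by 3 transmembrane proteins. IRE1 (gene Ern1) is a kinase and RNase that splices the Xbp1 mRNA so that it encodes an active transcription factor. ATF6 is cut in the Golgi and its released part enters the nucleus to raise chaperone genes. PERK (Eif2ak3) phosphorylates the translation factor eIF2 alpha, which slows protein synthesis and favours translation of the Atf4 mRNA, whose product raises amino acid and stress genes. The IRE1/XBP1 arm is known to be active in cDC1 and to bear on their presentation of antigen. Splicing, cleavage and phosphorylation were not visible in gene counts, so the values below are mRNA levels only.

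Many chaperone genes of this response carry the ER stress response element (ERSE), in which CCAAT and CCACG stand 9 bases apart, on either strand. RefSeq promoter windows of GRCm38.p6, from 250 bases before to 50 after the start, were matched for 33 of the 38 members, the others being Derl1, Sec61a1, Atf6, Hyou1 and Manf. An ERSE was found in 7 of 33 members (21.2%) and in 37 of 27025 genes (0.137%). As the members were chosen by name as genes of this response, this excess is not a finding of these data. The stretches of 5 of the 7 are shown, because this sequence was shared by genes that fell in mature cells, as given below. They are written on the strand of the gene. Capitals mark the CCAAT and CCACG boxes or their reverse complements, ATTGG and CGTGG, with 15 bases on either side.
Hspa5, chr2:34772010-34772058, plus strand: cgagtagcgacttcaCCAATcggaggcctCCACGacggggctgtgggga
Pdia6, chr12:17266476-17266524, plus strand: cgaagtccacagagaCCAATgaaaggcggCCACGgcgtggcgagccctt
Dnajc3, chr14:118937812-118937860, plus strand: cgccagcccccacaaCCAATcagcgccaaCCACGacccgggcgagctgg
Creld2, chr15:88819505-88819553, plus strand: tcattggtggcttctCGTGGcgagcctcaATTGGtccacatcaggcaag
Derl3, chr10:75893227-75893275, plus strand: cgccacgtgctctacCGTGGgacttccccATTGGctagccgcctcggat

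The other members with an ERSE were Syvn1 and Hsp90b1, the latter with 2 of them. The element was in 4 of 10 matched members of the ATF6 arm, in 3 of 14 of the IRE1/XBP1 arm and in 0 of 9 of the PERK/ATF4 arm. The shorter CCACG core, which every ERSE contains, was in 28 of 33 members (84.8%) and in 35.5% of all genes. The UPRE core TGACGTGG, whose reverse complement holds CCACG, was in 0 of 33 members and in 0.714% of genes. The ATF4 core TTGCATCA was in 2 members, Chac1 and Herpud1 (6.06% of 33, against 1.03% of all genes), searched on both strands and shown here with the core in capitals.
Chac1, chr2:119351034-119351071, plus strand: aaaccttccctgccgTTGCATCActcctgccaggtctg
Herpud1, chr8:94386302-94386339, plus strand: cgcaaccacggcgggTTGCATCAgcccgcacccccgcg

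To compare levels between genes, reads were divided by exon length and scaled to the same total in every sample (TPM). Hspa5, which encodes the chaperone BiP, ranked first of the 38 in all 4 immature groups, with 3327 ± 127 TPM (SD, n = 4) in immature thymic cDC1 and 2113 ± 301 (n = 3) in splenic cDC2. In both mature groups the first rank was held by Ppp1r15a, which encodes the GADD34 subunit that directs a phosphatase to eIF2 alpha. It stood at 1333 ± 129.6 TPM (SD) in mature cDC1 and 1084 ± 15.7 in mature cDC2 (n = 3 each), with Hspa5 second at 726 ± 40.8 and 690.3 ± 217. Trib3, a pseudokinase of the PERK/ATF4 arm, was last in all 4 immature groups, and Derl3 was last in both mature groups.

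The first comparison asks how these genes differed between mature and immature thymic cells. In cDC1, 29 of the 38 were lower and 6 higher in mature cells at a limma adjusted p below 0.1, where 33.7% and 30.4% of all genes tested were lower and higher. In cDC2, 21 were lower and 6 higher, beside 25.5% and 27.7% of all genes. The median log2 fold change of the 38 was -1.34 in cDC1 and -0.76 in cDC2, and that of all genes tested -0.04 and 0.04. Of the 38, 21 fell in both subsets, 5 rose in both, 8 fell in cDC1 and did not pass the test in cDC2, and none moved in opposite directions. Atf4 and Ddit3 were called in neither subset. Within lane 8, which held all mature samples, 35 members were called in cDC1 and 28 in cDC2. In bulk samples, fewer cells with a transcript and less of it per cell cannot be told apart.

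**Figure D1:**
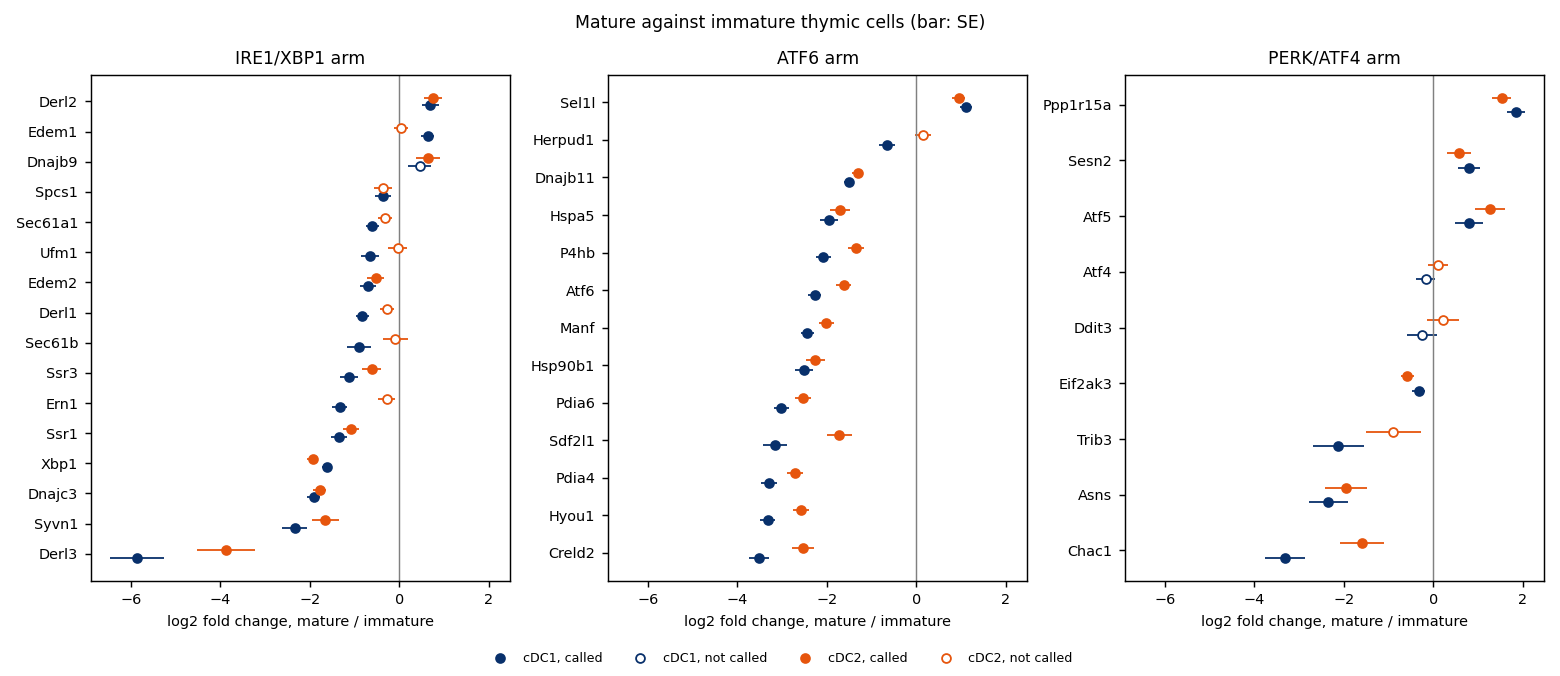
Log2 fold change (x axis, mature over immature thymic cells) of the 38 members by arm, with bars for 1 SE; filled points passed limma's adjusted p of 0.1. In the ATF6 arm 12 of 13 genes were lower in mature cDC1 and 11 of 13 in mature cDC2, while Sel1l lay to the right of 0 in both subsets.

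In the ATF6 arm 12 of 13 genes were lower and 1 higher in mature cDC1, and 11 lower and 1 higher in mature cDC2. The sensor and the chaperones fell by more than 2-fold in both subsets, and the member that rose was Sel1l. The summed value of the 13 genes was 230665 to 282270.0 in immature and 61160.3 to 75046 in mature thymic cDC1, and 168590.0 to 184952 and 55588 to 68707 in cDC2, with no overlap between stages. Atf6 itself, the sensor, read 4057, 3677, 2913 and 3789 in immature thymic cDC1 and 597, 925 and 735 in mature cDC1. In cDC2 it read 4226, 4366 and 3897 before and 1248, 1315 and 1480.3 after. Every mature sample lay below every immature one in both subsets (log2 fold change -2.27, SE 0.15, limma adjusted p = 4.74e-11 for cDC1; log2 fold change -1.63, SE 0.16, limma adjusted p = 4.03e-08 for cDC2).

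Hspa5 averaged 104279 ± 10219 (SD, n = 4) in immature and 26960.4 ± 3609 (n = 3) in mature thymic cDC1, and 77818 ± 7088 and 24518 ± 6572 (n = 3 each) in immature and mature cDC2. The log2 fold change was -1.95 in the former and -1.70 in the latter subset. Creld2, a disulfide isomerase-like protein that ER stress induces, fell furthest within this arm in cDC1. Its values were 4241, 4497, 5987 and 3727 in immature and 369, 347 and 485 in mature cDC1, and the groups did not overlap (log2 fold change -3.52, SE 0.23, limma adjusted p = 5.65e-11). In cDC2 they were 2372, 2467 and 3075 and 456, 532 and 376, once more without overlap (log2 fold change -2.54, SE 0.25, limma adjusted p = 4.31e-08).

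Hyou1, the large ER chaperone GRP170, read 14825, 13101, 15499.6 and 12718 in immature thymic cDC1 and 1620.3, 1201 and 1398 in mature cDC1. The corresponding values in cDC2 were 9297, 9117 and 10405 and 1588, 1744 and 1499.9. The mature samples of both subsets were all below the immature ones (log2 fold change -3.32, SE 0.17, limma adjusted p = 1.78e-12 in cDC1; log2 fold change -2.58, SE 0.18, limma adjusted p = 6.11e-10 in cDC2). The disulfide isomerase Pdia4 went from 5858, 5658, 7765 and 5144 to 583, 685 and 585 in cDC1 (log2 fold change -3.29, SE 0.17, limma adjusted p = 2.68e-12). In cDC2 it went from 4649.9, 4149 and 5918 to 861, 864 and 546 (log2 fold change -2.71, SE 0.19, limma adjusted p = 3.82e-10), and stages did not overlap in either subset. Pdia6, another isomerase, was at 10322, 10782 and 12002 in immature and 1941, 2318 and 1529.7 in mature cDC2, a fall of similar size (log2 fold change -2.53, SE 0.18, limma adjusted p = 5.90e-10), and its log2 fold change in cDC1 was -3.02.

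The other members of the arm that fell in both subsets were the chaperones Hsp90b1 (-2.51 in cDC1 and -2.26 in cDC2, log2 fold change), Dnajb11 (-1.51 and -1.31) and Sdf2l1 (-3.15 and -1.72), the isomerase P4hb (-2.08 and -1.34) and the secreted factor Manf (-2.43 and -2.01). Of the exon bases of Hsp90b1, 15.7% overlapped other genes. Of these genes, Gm15344 was at 251 to 399 and 1810014B01Rik at 45.6 to 84.9 in immature thymic cDC1, while Gm25745 was not looked at. Their part in the value of Hsp90b1 was not tested. Herpud1, which recruits substrates to the degradation complex, fell in cDC1 (-0.66) and was not called in cDC2 (0.15, adjusted p = 0.56 by limma). Sel1l, the partner of the ubiquitin ligase HRD1, read 5202, 4708, 3506 and 4409 in immature thymic cDC1 and 10142, 8613 and 9833 in mature cDC1, the mature samples being higher without overlap (log2 fold change 1.11, SE 0.14, limma adjusted p = 8.60e-07). In cDC2 its values were 3897, 4186 and 3403 and 7531, 6741 and 7773, with the same order (log2 fold change 0.94, SE 0.15, limma adjusted p = 2.62e-05).

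In the IRE1/XBP1 arm, 13 of 16 genes were lower and 2 higher in mature cDC1, and 7 lower and 2 higher in mature cDC2. Ern1, the sensor, read 1139, 1053, 735 and 946 in immature and 324, 336 and 499 in mature thymic cDC1, with no overlap (log2 fold change -1.33, SE 0.17, limma adjusted p = 1.03e-06). Its cDC2 values were 1136, 1139 and 977 and 825, 885 and 958, also without overlap, but the difference did not pass the threshold (log2 fold change -0.28, SE 0.18, limma adjusted p = 0.214). Xbp1 was at 3692, 3878, 4062 and 3249 in immature and 1091, 1307 and 1244 in mature cDC1, so that mature samples were all lower (log2 fold change -1.61, SE 0.11, limma adjusted p = 1.77e-10). It was at 4452, 5197 and 4889 and 1282, 1318 and 1188 in cDC2, again all lower (log2 fold change -1.94, SE 0.12, limma adjusted p = 1.02e-10).

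Derl3, one of the derlins that take part in moving proteins out of the ER for degradation, showed the largest fall of the 38 in both subsets. It read 223, 182, 239 and 198 in immature and 1.84, 15.6 and 0 in mature cDC1, where no library held more than 9 reads. The stages did not overlap (log2 fold change -5.86, SE 0.60, limma adjusted p = 4.77e-08), and the fitted fold change depended on the pseudocount and test, at -7.17 to -4.14 over the alternatives. Immature cDC2 held 171, 151 and 231 and mature cDC2 16.1, 9.74 and 9.42, without overlap (log2 fold change -3.88, SE 0.64, limma adjusted p = 4.43e-05). Its relatives did not share the size of this change. Derl1 fell in cDC1 (-0.82) and was not called in cDC2 (-0.27, adjusted p = 0.161, limma).

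Derl2 moved the other way. It read 1451, 1450.0, 1219 and 1421 in immature and 2721, 1847 and 2203 in mature cDC1, where the mature samples were all higher (log2 fold change 0.69, SE 0.19, limma adjusted p = 0.00403). The cDC2 samples went from 929.8, 1113 and 863 to 1591, 1470.0 and 1833, with the same order (log2 fold change 0.75, SE 0.20, limma adjusted p = 0.00453). The co-chaperone Dnajb9, which restrains IRE1, was at 2251, 2938 and 2402 in immature and 3259.8, 3359.7 and 5524 in mature cDC2 (log2 fold change 0.64, SE 0.28, limma adjusted p = 0.0629), and its log2 fold change in cDC1 was 0.45, adjusted p = 0.142 (limma). Mature cDC2 replicate 3 was well above the other two. The call in cDC2 was lost on leaving out any 1 of immature thymic cDC2 replicates 1 and 3 or mature thymic cDC2 replicate 3 (limma adjusted p = 0.137 to 0.296). Edem1, which helps to select misfolded glycoproteins for degradation, rose in cDC1 (0.63) and stayed near its immature level in cDC2 (0.03, adjusted p = 0.882, limma).

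The co-chaperone Dnajc3 (-1.92 in cDC1 and -1.78 in cDC2, log2 fold change), the ubiquitin ligase gene Syvn1 (-2.34 and -1.65), Ssr1 (-1.35 and -1.08), Ssr3 (-1.13 and -0.62) and Edem2 (-0.69 and -0.53) fell in both subsets. Ssr1 and Ssr3 encode parts of the complex that assists the translocon, through which new proteins enter the ER. The translocon subunits Sec61a1 and Sec61b, the signal peptidase subunit Spcs1 and the modifier Ufm1 fell in cDC1, by 0.90 for Sec61b and 0.36 for Spcs1 on the log2 scale. None of the 4 was called in cDC2, where their log2 fold changes were -0.37 to -0.03. Glt8d1 lies antisense to 16.3% of the exon bases of Spcs1, and its part in the value of Spcs1 was not tested.

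Of the 9 genes of the PERK/ATF4 arm, 4 were lower and 3 higher in mature cDC1, which is 44.4% and 33.3%, and 3 were lower and 3 higher in mature cDC2, shares not far from those of all genes. Eif2ak3, which encodes PERK, read 1316, 984, 942 and 897 in immature and 817, 731 and 895 in mature cDC1 (log2 fold change -0.33, SE 0.14, limma adjusted p = 0.043). That call was lost without immature thymic cDC1 replicate 1 or mature thymic cDC1 replicate 2 (limma adjusted p = 0.162 to 0.172), and in lane 8 alone. In cDC2 it read 1539, 1599 and 1301 and 939.7, 960.5 and 1043, with the mature samples lower (log2 fold change -0.59, SE 0.15, limma adjusted p = 0.0024). Atf4 overlapped between stages in both subsets, at 8460.1, 9503, 12294 and 7844 against 7106, 8951 and 9078 in cDC1 (log2 fold change -0.17, SE 0.21, limma adjusted p = 0.509). In cDC2 it was 7487, 8119 and 10192 against 8337, 9920.2 and 9189 (log2 fold change 0.10, SE 0.23, limma adjusted p = 0.761). Ddit3, the factor CHOP, overlapped likewise, at 292, 381, 499 and 289 and 234, 255 and 437 in cDC1 (log2 fold change -0.26, SE 0.33, limma adjusted p = 0.52). Its values in cDC2 were 398, 448 and 526 and 530.5, 578 and 483 (log2 fold change 0.22, SE 0.36, limma adjusted p = 0.653). Of the exon bases of Ddit3, 10.9% overlapped another entry of the same name and the antisense genes Gm4189 and Mars. Mars was at 1581.5 to 2887 in immature and 719 to 879 in mature thymic cDC1. In cDC2 Mars was at 1391 to 1760.1 and 605 to 833. The part of these genes in the values of Ddit3 was not tested.

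Ppp1r15a had the largest rise of the 38. It read 8185, 10155, 11544 and 8340.0 in immature thymic cDC1 and 28884, 33714 and 40847 in mature cDC1. The values in cDC2 were 8560.0, 10142 and 9522 and 27220.3, 28399 and 25247. Each mature sample was more than 2-fold above each immature one (log2 fold change 1.85, SE 0.20, limma adjusted p = 1.09e-07 in cDC1; log2 fold change 1.52, SE 0.21, limma adjusted p = 6.78e-06 in cDC2). Sesn2, a stress protein that restrains the growth kinase mTORC1, was at 1033, 1119, 1116 and 812 in immature and 1423, 1629 and 2365 in mature cDC1, without overlap (log2 fold change 0.80, SE 0.25, limma adjusted p = 0.00864), and rose in cDC2 as well (0.58, adjusted p = 0.0797, limma).

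Atf5, a transcription factor related to ATF4, read 319, 365, 529 and 258 in immature and 549, 617 and 692 in mature cDC1, and 683, 577 and 819 and 1891, 1929 and 1238 in cDC2. Mature samples were higher in both subsets (log2 fold change 0.79, SE 0.31, limma adjusted p = 0.0361 in cDC1; log2 fold change 1.27, SE 0.34, limma adjusted p = 0.00393 in cDC2). The call in cDC1 was lost without immature thymic cDC1 replicate 4 or mature thymic cDC1 replicate 3 (limma adjusted p = 0.102 to 0.106). Il4i1, which lies antisense to Atf5 and shares with Nup62 an overlap of 8.23% of its exon bases, ranged over 208 to 388 in immature and 22671 to 39965 in mature cDC1, and over 5477 to 7302 and 33940.0 to 52014 in cDC2, also without overlap. Since the strand setting of the counting was not given in the sources used here, its part in the values of Atf5 was not tested.

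Chac1, an enzyme that degrades glutathione, fell from 425, 406, 403 and 305 to 11.1, 78.0 and 58.4 in cDC1, with no overlap (log2 fold change -3.32, SE 0.46, limma adjusted p = 2.90e-06). In cDC2 it averaged 141 ± 39.2 and 45.2 ± 9.58 (SD, n = 3 each) and was also called (-1.60, adjusted p = 0.0106, limma). Asns, which makes asparagine, fell in both subsets (log2 fold change -2.35 and -1.96). Trib3 fell in cDC1 (-2.13) and was not called in cDC2 (-0.90, adjusted p = 0.246, limma). Values of the sensors, factors and chosen targets in each sample are plotted for the 6 groups.

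**Figure D2:**
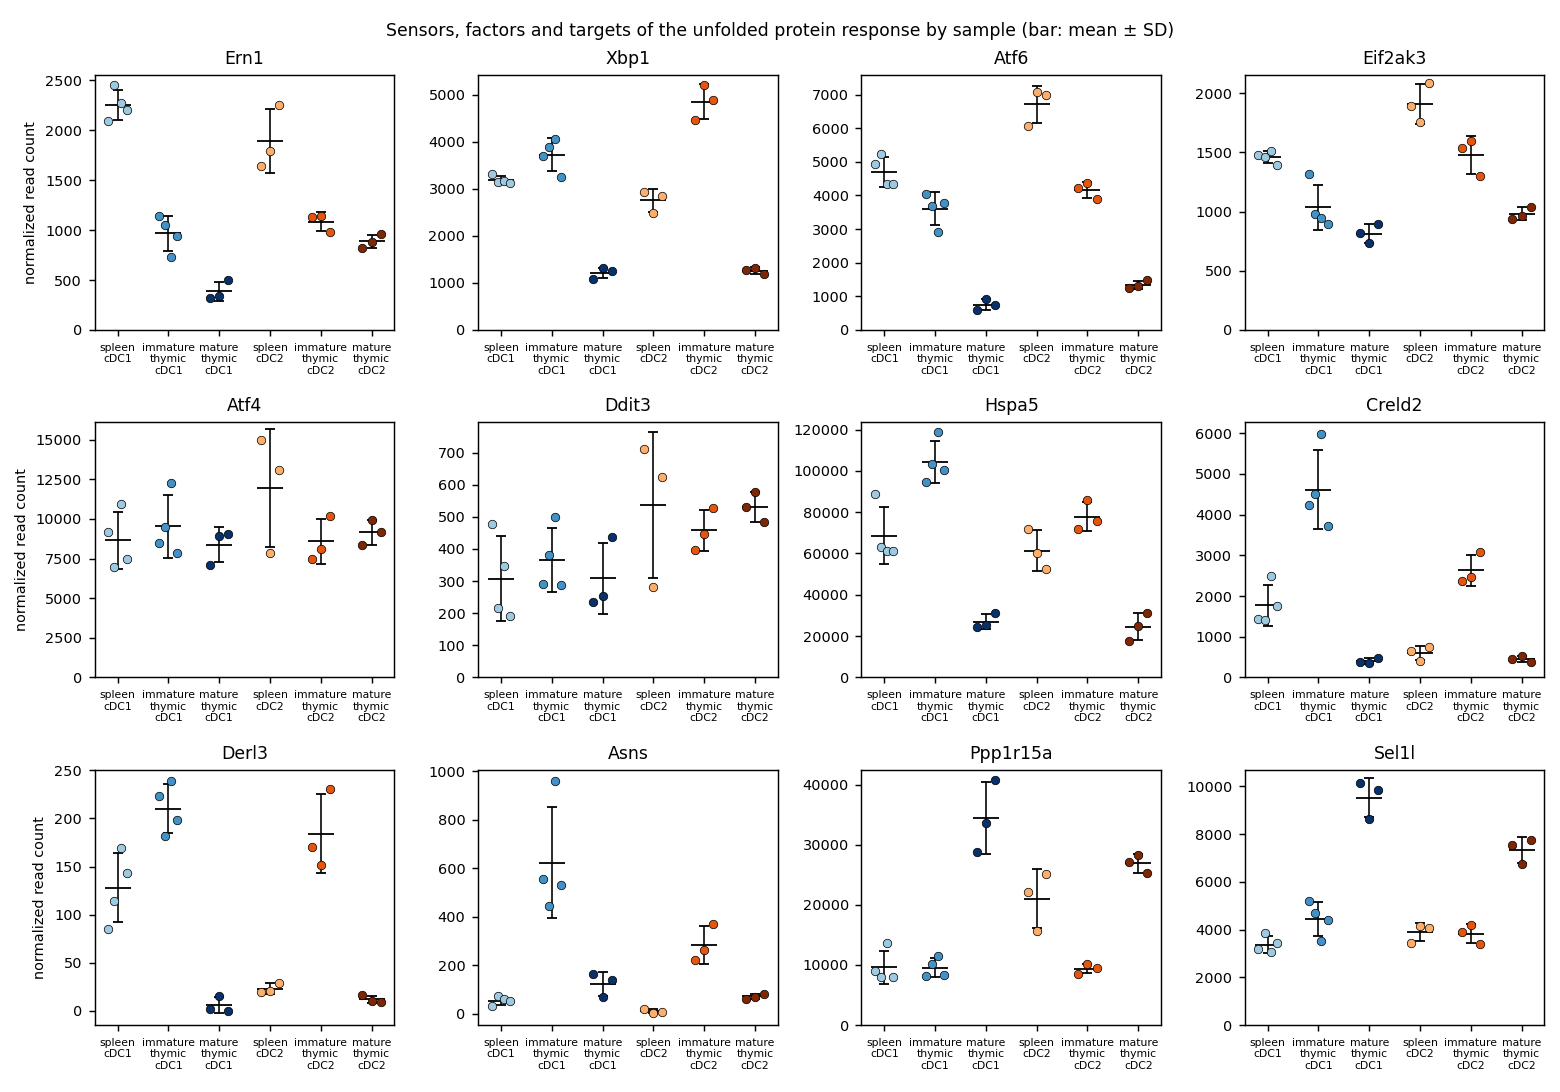
Normalized reads count (y axis, linear from 0) of 12 members in each sample of the 6 groups (x axis); horizontal lines and bars are the mean and SD. In mature thymic cells Xbp1, Atf6, Hspa5 and Creld2 lie below every immature thymic sample and Ppp1r15a and Sel1l above, while Atf4 and Ddit3 overlap.

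All 7 members with an ERSE in the window fell in both maturation comparisons, with a median log2 fold change of -2.51 in cDC1 and -2.26 in cDC2. Of the 26 matched members without one, 17 fell in cDC1 and 11 in cDC2, with medians of -0.68 and -0.33. These counts are a description, and a match in the letters says nothing of binding.

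Markers of other cell types differed between stages as well. All 5 T cell genes tested were higher in mature cells of both subsets, with summed values of 411 to 739 in mature and 88.6 to 123 in immature cDC2. The plasma cell genes, named because such cells are rich in ER, were called higher for 1 and lower for 1 of 4 tested in cDC1 and lower for 1 in cDC2. Their summed values were 3631 to 5922 in immature and 977 to 1179 in mature thymic cDC1. Most of this was Ighm, at 4651 ± 931 (SD, n = 4) and 864.8 ± 109 (n = 3). The gene called higher in mature cDC1 was Igkc, at 20.9 ± 14.2 in immature and 169 ± 18.6 in mature cells, while the defining markers Jchain, Sdc1 and Mzb1 stayed at or below a mean of 17.0 in every group. Of 5 macrophage genes, 3 were lower and 1 higher in mature cDC1, with summed values of 2518 to 5291 in immature and 209.7 to 769 in mature cells, and 1 was lower in mature cDC2 (8481 to 12773 and 2189.8 to 15023). Most of the sum in cDC1 was Cd68, at 3443 ± 1089 (SD, n = 4) in immature and 229 ± 98.1 (n = 3) in mature cells. C1qa averaged 88.8 ± 21.2 and 53.3 ± 79.9 there. Of 5 plasmacytoid DC genes tested, 2 were lower and 1 higher in cDC1, and 3 lower and 1 higher in cDC2. Of 5 thymic epithelial genes, 1 was higher and 1 lower in mature cDC1 (577 to 690.2 summed in immature and 1772 to 2444 in mature cells), and 3 were higher and 1 lower in mature cDC2 (3463 to 3843 and 3580.3 to 4700.0). Most of the sum was Epcam in immature cells. In mature cells most was Aire, at 1793 ± 252 in cDC1 and 3408 ± 586 in cDC2 (SD, n = 3 each). In mature cDC2 Psmb11 averaged 108 and Krt8 180, while Foxn1 stayed at or below a mean of 14.2 in every group. Among 10 immediate-early and heat-shock genes, which respond to handling, 5 were lower in mature cDC1 and 3 in mature cDC2. Their part in the members' values was not tested.

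Around the 38 genes, 105 others of the same pathway were listed by role and 101 of them tested. In mature cDC1, 27 were higher and 52 lower, beside 30.4% and 33.7% of all genes tested. In mature cDC2, 24 were higher and 45 lower, beside 27.7% and 25.5%. The shares that were higher did not exceed those of all genes. The translocon, signal peptidase and glycosylation genes were mostly lower, at 13 of 17 in cDC1 (76.5%) and 14 of 17 in cDC2 (82.4%). Rpn1 (-3.94 and -2.76, log2 fold change in cDC1 and cDC2) and Rpn2 (-2.08 and -1.70), subunits of the oligosaccharyltransferase, fell, and the signal peptidase gene Sec11c rose (1.00 and 1.26). Of 17 further chaperones and folding enzymes, 11 fell (64.7%) and 2 rose in cDC1, and 8 fell (47.1%) and 3 rose in cDC2. Sil1, the exchange factor of BiP, was at -2.02 and -1.49, while Dnajc1 rose (2.04 and 2.52). Of 19 genes of ER-associated degradation, 9 were higher (47.4%) and 4 lower in cDC1, and 7 higher (36.8%) and 3 lower in cDC2, the share higher in cDC2 being not far from that of all genes. Aup1 (1.69 and 1.41) and the ATPase gene Vcp (1.14 and 0.66) rose in both.

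Genes of sensing and signal control were split, 5 of 14 being higher and 7 lower in cDC1, and 5 and 6 in cDC2. The shares higher were not far from those of all genes. Traf2, which binds IRE1, rose (1.99 and 1.52), whereas Creb3l2, a relative of ATF6, fell (-3.15 and -2.57). Known targets of ATF4 held large changes in both directions. The cystine transporter gene Slc7a11 rose (4.12 and 2.27), and the genes of serine and glycine synthesis fell, with Phgdh at -5.89 and -3.00, Psat1 at -3.02 and -2.75, and Shmt2 at -3.63 and -2.17. In all, 8 of 22 such targets were higher and 11 lower in cDC1, and 6 and 10 in cDC2, the shares higher being near those of all genes. Of 6 UFM1 conjugation genes, 4 fell in cDC1 and 2 in cDC2, including Cdk5rap3 (-1.59 and -0.88). Of 6 transcripts known from other work to be cut by IRE1, Tapbp rose (1.86 and 1.48) and Itgb2 fell (-4.30 and -2.91). They were picked by the size of their change, and the other transcripts of this list are not described.

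**Figure D3:**
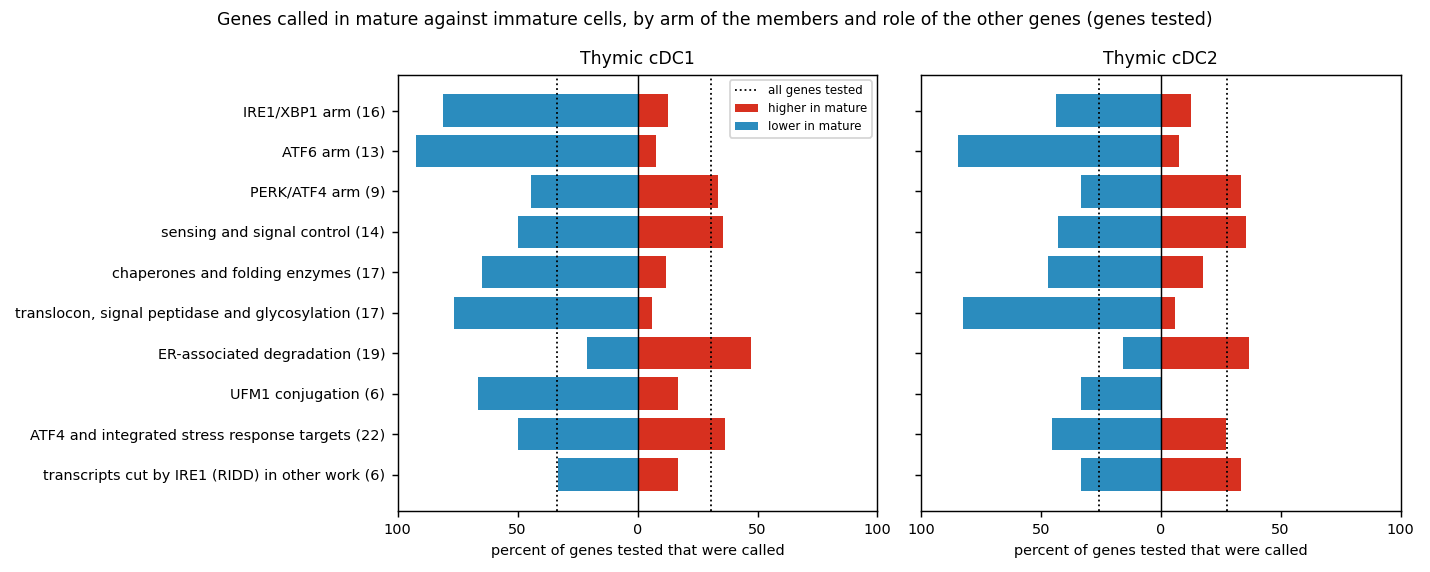
Percent of the genes tested that were called lower (left of 0) or higher (right of 0) in mature thymic cells, for the 3 arms of the 38 members and the roles of the other pathway genes; dotted lines give the share over all genes tested. The ATF6 arm shows the longest bar to the left in both subsets. Next longest are the IRE1/XBP1 arm in cDC1 and the translocon group in cDC2. ER-associated degradation has 9 genes higher and 4 lower in cDC1.

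The next comparison asks how immature cells differed between thymus and spleen. In cDC1, 17 of the 38 genes were higher and 3 lower in the thymus, beside 7.72% and 7.66% of all genes tested. In cDC2, 24 were higher and 4 lower, beside 14.9% and 11.6%. The median log2 fold change was 0.43 and 0.82, and over all genes tested 0.00 and 0.02. Higher in both subsets were 15 genes, and 3 were lower in both, namely Ern1, Atf6 and Eif2ak3. These 3 encode the sensors themselves. This comparison and that of stages share the immature thymic samples, so the 2 sets of fold changes are not independent. Within lane 8, 18 members were called in cDC1 and 24 in cDC2.

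Ern1 read 2096, 2449.8, 2273 and 2198 in splenic cDC1 and 1637, 1797 and 2254 in splenic cDC2. Both thymic groups, with the values above, were lower without overlap (log2 fold change -1.24, SE 0.16, limma adjusted p = 9.86e-06 in cDC1; log2 fold change -0.80, SE 0.18, limma adjusted p = 0.00326 in cDC2). Atf6 read 4922, 5221, 4333 and 4343 in splenic cDC1 and 6069, 7074 and 6982 in splenic cDC2 (log2 fold change -0.39, SE 0.14, limma adjusted p = 0.0697 in cDC1; log2 fold change -0.69, SE 0.16, limma adjusted p = 0.00325 in cDC2). The call in cDC1 was lost without any 1 of splenic cDC1 replicates 1 and 2 or immature thymic cDC1 replicates 2 and 3 (limma adjusted p = 0.115 to 0.233). It was also lost with samples of 1 library number averaged (limma adjusted p = 0.186) and with library number as a random replicate block (adjusted p = 0.108). Lane as a covariate and lane 8 alone lost it too. Eif2ak3 read 1478, 1459.6, 1515 and 1391 and 1893, 1756 and 2091 in splenic cDC1 and cDC2 and was lower in the thymus (log2 fold change -0.51, SE 0.13, limma adjusted p = 0.00846 in cDC1; log2 fold change -0.37, SE 0.15, limma adjusted p = 0.0812 in cDC2). Its call in cDC2 was lost without any 1 of splenic cDC2 replicates 1 and 3 or immature thymic cDC2 replicates 1 and 3 (limma adjusted p = 0.117 to 0.299). With lane as a covariate that call was lost as well.

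Xbp1 read 3315, 3134, 3161 and 3120.3 in splenic cDC1, overlapping the thymic samples (log2 fold change 0.22, SE 0.10, limma adjusted p = 0.223). In splenic cDC2 it read 2927, 2483 and 2847, below every thymic sample (log2 fold change 0.82, SE 0.12, limma adjusted p = 5.04e-05). Atf4 read 9187, 6974, 10951 and 7477 and 14996, 7834 and 13067 in splenic cDC1 and cDC2, and overlapped the thymic groups (log2 fold change 0.14, SE 0.20, limma adjusted p = 0.778 in cDC1; log2 fold change -0.44, SE 0.23, limma adjusted p = 0.196 in cDC2). Ddit3 read 478, 216, 346 and 191 and 710.2, 281 and 624, and was not called (log2 fold change 0.31, SE 0.31, limma adjusted p = 0.663 in cDC1; log2 fold change -0.13, SE 0.36, limma adjusted p = 0.845 in cDC2). Splenic cDC2 replicate 2 was the lowest of its group for Atf4, Ddit3 and Ppp1r15a, and also for the summed value of 10 immediate-early and heat-shock genes, at 211217 against 337031 and 366434.

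The largest differences between organs were in the PERK/ATF4 arm. Asns read 32.9, 72.0, 60.0 and 51.1 in splenic and 555, 445, 959.7 and 532 in immature thymic cDC1 (log2 fold change 3.49, SE 0.41, limma adjusted p = 3.32e-06). Splenic cDC2 held 20.1, 3.75 and 6.52 and thymic cDC2 219.9, 262 and 372 (log2 fold change 4.94, SE 0.47, limma adjusted p = 2.12e-07), so that spleen and thymus did not overlap in either subset. Trib3 was near the limit of detection in the spleen, at 18.5, 3.94, 17.5 and 11.9 in cDC1 and 7.32, 1.25 and 9.78 in cDC2. Thymic samples read 97.1, 102, 149.8 and 99.0 in cDC1 and 75.8, 69.0 and 85.7 in cDC2, all higher (log2 fold change 3.17, SE 0.53, limma adjusted p = 2.28e-04 in cDC1; log2 fold change 3.72, SE 0.61, limma adjusted p = 1.49e-04 in cDC2). At such low values the fold change depends on the pseudocount and test, and that of Trib3 was 2.64 to 4.16 in cDC2 over the alternatives.

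Atf5 read 53.5, 53.3, 115 and 64.9 in splenic cDC1 and 92.4, 44.4 and 104 in splenic cDC2, below all thymic samples (log2 fold change 2.37, SE 0.29, limma adjusted p = 6.61e-06 in cDC1; log2 fold change 3.17, SE 0.34, limma adjusted p = 8.51e-07 in cDC2). Il4i1, antisense to it, was at 169.9 to 537 in splenic and 208 to 388 in immature thymic cDC1, which overlapped, and at 1276 to 2566 and 5477 to 7302 in cDC2, which did not. Chac1 read 105, 98.6, 165 and 96.8 in splenic cDC1, below the thymic samples (log2 fold change 1.74, SE 0.42, limma adjusted p = 0.00742). In cDC2 it read 19.2, 16.9 and 14.7 in the spleen and 113, 185 and 123 in the thymus (log2 fold change 2.96, SE 0.49, limma adjusted p = 1.59e-04). Ppp1r15a went the other way in cDC2, with 22203, 15647 and 25203 in the spleen above all thymic samples (log2 fold change -1.13, SE 0.21, limma adjusted p = 6.50e-04), and was level in cDC1 at 8945, 7957, 13593 and 7923 in the spleen (0.02, adjusted p = 0.985, limma).

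In the ATF6 arm, 11 of 13 genes were higher in thymic cDC1 and 9 of 13 in thymic cDC2. Creld2 read 1437, 1409, 2495 and 1759 in splenic cDC1 and 645, 397 and 737 in splenic cDC2, below the thymic samples without overlap (log2 fold change 1.39, SE 0.21, limma adjusted p = 7.92e-05 in cDC1; log2 fold change 2.19 in cDC2). The rises of Sdf2l1 were 1.28 and 2.07, of Pdia4 1.06 and 2.25, and of Hsp90b1 0.84 and 1.73 on the log2 scale. Hspa5 was higher in thymic cDC1 (0.62, adjusted p = 0.0401, limma) and was not called in cDC2 (0.35, adjusted p = 0.305). In the IRE1/XBP1 arm, 2 of 16 genes were higher and 1 lower in thymic cDC1, near the 7.72% and 7.66% of all genes tested. In thymic cDC2, 11 of 16 were higher and 1 lower, beside 14.9% and 11.6%. Derl3 read 19.2, 20.6 and 29.3 in splenic cDC2, below the thymic samples (log2 fold change 2.95, SE 0.64, limma adjusted p = 0.00227). In splenic cDC1 it read 85.4, 114, 169 and 144 and was not called (0.75, adjusted p = 0.511, limma). In lane 8 alone the calls of Chac1 in cDC1 (limma adjusted p = 0.251) and of Derl3 in cDC2 (limma adjusted p = 0.189) were lost.

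**Figure D4:**
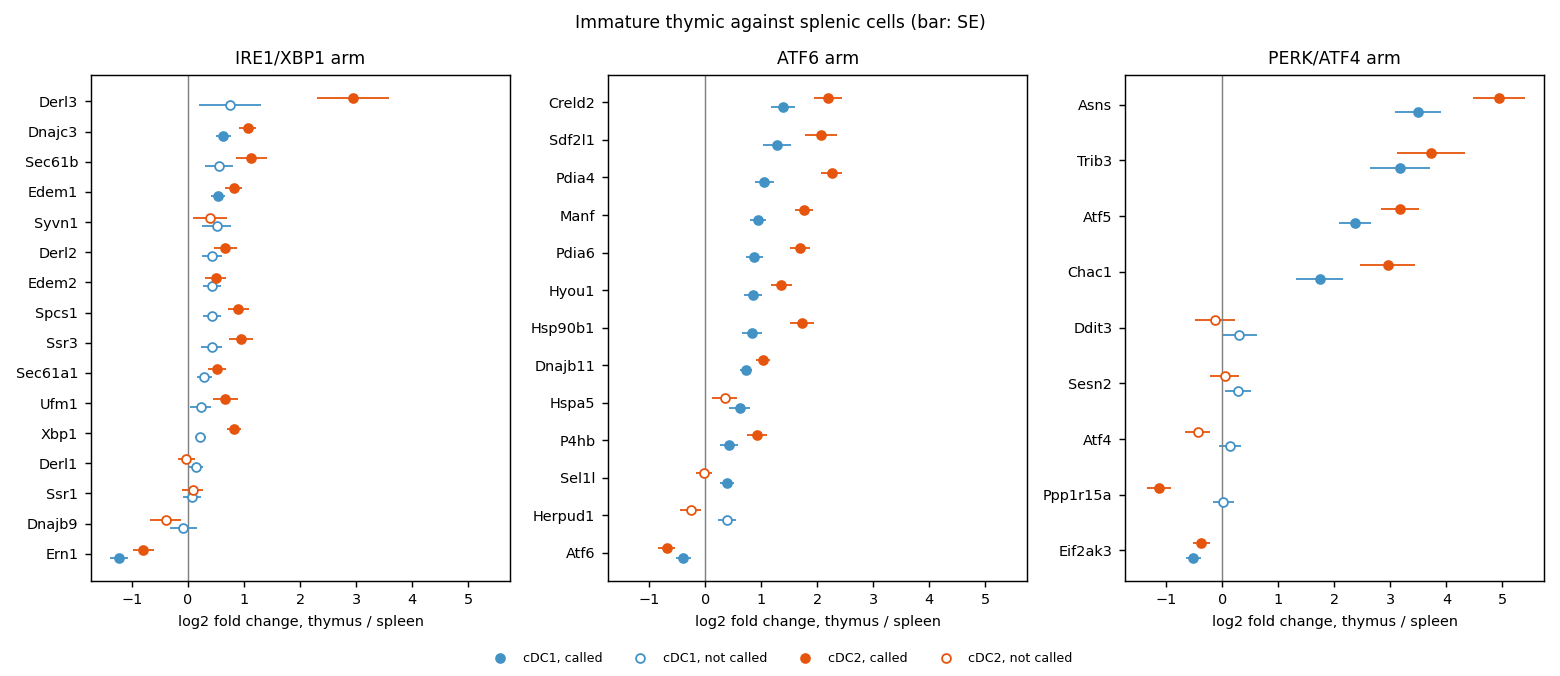
Log2 fold change (x axis, immature thymic over splenic cells) of the 38 members by arm, with bars for 1 SE; filled points passed limma's adjusted p of 0.1. Asns, Trib3, Atf5 and Chac1 lie furthest to the right in both subsets, and the sensor genes Ern1, Atf6 and Eif2ak3 lie left of 0.

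Of the other pathway genes, 22 of 101 were higher and 2 lower in thymic cDC1, beside 7.72% and 7.66% of all genes tested. In thymic cDC2, 45 were higher and 5 lower, beside 14.9% and 11.6%. These counts held 10 and 11 of 22 ATF4 targets, 6 and 12 of 17 translocon genes and 0 and 4 of 19 degradation genes among the higher. For degradation genes the share in cDC2 was not far from that of all genes. Markers of other cells differed between organs too. All 5 T cell genes tested were higher in thymic cDC1 and 3 in thymic cDC2, and 3 of 5 macrophage genes in thymic cDC2, where C1qa averaged 2289 ± 609 (SD, n = 3) against 359.9 ± 98.7 (n = 3) in the spleen. All 5 plasmacytoid DC genes tested were higher in thymic cDC2, with summed values of 3272 to 3961 in the spleen and 10546 to 12121 in the thymus, and 1 of them in thymic cDC1 (3356 to 3877 and 5184 to 5975). In thymic cDC2 most of the sum was Tcf4 and Bst2, at 5899 ± 298 and 3834 ± 425 (SD, n = 3). They averaged 2486 and 907 in splenic cDC2. Siglech and Ccr9 averaged 889 and 632 in thymic and 86.4 and 149 in splenic cDC2. All 5 thymic epithelial genes were higher in thymic cDC2 (96.1 to 156 and 3463 to 3843) and 3 in thymic cDC1 (57.2 to 79.3 and 577 to 690.2). Most of this was Epcam, at 3516 ± 174 (SD, n = 3) in thymic cDC2 and 581 ± 66.2 (n = 4) in thymic cDC1. Foxn1 and Psmb11 averaged 5.35 and 13.0 in thymic cDC2. Of the 10 immediate-early and heat-shock genes, 4 were higher in thymic cDC1, and 2 were lower in thymic cDC2, with summed values of 200398 to 288085 in splenic and 300534 to 392274 in immature thymic cDC1. Their part in the members' values was not tested.

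The subsets were then compared within each site and stage. In the spleen, cDC2 had 19 of the 38 genes lower and 6 higher than cDC1, beside 13.4% and 15.9% of all genes tested. In immature thymic cells 12 were lower and 5 higher, beside 10.5% and 15.5%. In mature thymic cells 1 was lower and 7 higher, beside 9.26% and 21%, so that the share of members that were higher was near that of all genes. Within lane 8, 15 were called in the spleen, where a single cDC2 sample was left, 9 in immature and 8 in mature thymic cells. The median log2 fold change of the 38 was -0.59 in the spleen, -0.31 in immature and 0.20 in mature thymic cells, and over all genes tested it was 0.02, 0.01 and 0.14. Of the 13 genes of the ATF6 arm, 9 were lower in splenic cDC2, 7 in immature thymic cDC2 and 1 in mature thymic cDC2.

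In the spleen, Chac1 (log2 fold change -2.68, SE 0.46, limma adjusted p = 1.36e-04), Asns (log2 fold change -2.54, SE 0.44, limma adjusted p = 1.61e-04) and Derl3 (log2 fold change -2.40, SE 0.60, limma adjusted p = 0.00487) were the lowest in cDC2 relative to cDC1, and their values given above did not overlap. Creld2 (log2 fold change -1.59, SE 0.23, limma adjusted p = 1.96e-05) did not overlap either. Pdia4, at 2551, 3253, 2833 and 2990.1 in splenic cDC1 and 922, 1116 and 1018 in splenic cDC2, was likewise lower in every cDC2 sample (log2 fold change -1.51, SE 0.17, limma adjusted p = 1.19e-06). Ppp1r15a was higher in splenic cDC2, without overlap (log2 fold change 1.14, SE 0.20, limma adjusted p = 1.93e-04). Among the sensors and factors, Atf6 was higher in cDC2 (log2 fold change 0.51, SE 0.15, limma adjusted p = 0.0126), as was Eif2ak3 (log2 fold change 0.39, SE 0.14, limma adjusted p = 0.0458). The call of Eif2ak3 was lost without any 1 of splenic cDC1 replicates 4 and 5 combined or splenic cDC2 replicates 1 and 3 (limma adjusted p = 0.102 to 0.181).

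Ddit3 was called higher in splenic cDC2 with overlapping samples (log2 fold change 0.79, SE 0.33, limma adjusted p = 0.0942). That call was fragile, being lost without any 1 of splenic cDC1 replicate 2, splenic cDC1 replicates 4 and 5 combined, immature thymic cDC1 replicates 1 and 2, splenic cDC2 replicates 1 and 3, immature thymic cDC2 replicates 1, 2 and 3 or mature thymic cDC2 replicates 1, 2 and 3 (limma adjusted p = 0.102 to 0.378). It was also lost with TMM scaling (limma adjusted p = 0.104). Ern1 (log2 fold change -0.26, SE 0.17, limma adjusted p = 0.324), Xbp1 (log2 fold change -0.21, SE 0.11, limma adjusted p = 0.204) and Atf4 (log2 fold change 0.44, SE 0.21, limma adjusted p = 0.154) were not called. Of the 10 immediate-early and heat-shock genes, 4 were higher in splenic cDC2 and 0 lower, and all 5 macrophage genes were higher, with summed values of 3010.1 to 4846 in splenic cDC1 and 6903 to 9598 in splenic cDC2. Most of these sums was Cd68, at 4038 ± 732 (SD, n = 4) and 7076 ± 1127 (n = 3). The part of these markers in the members' values was not tested.

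In immature thymic cells, Atf5 (log2 fold change 0.95, SE 0.31, limma adjusted p = 0.0348), Sesn2 (log2 fold change 0.71, SE 0.25, limma adjusted p = 0.0438) and Edem1 (log2 fold change 0.50, SE 0.14, limma adjusted p = 0.014) were called higher in cDC2 than cDC1, without overlap between samples. Sesn2 read 1619, 1599.7 and 1760.1 in cDC2, above all cDC1 samples, and Edem1 read 6987, 6375, 5544 and 7068 in cDC1 and 8924, 9614 and 8813 in cDC2. The calls of Atf5 (limma adjusted p = 0.107 to 0.145) and Sesn2 (limma adjusted p = 0.123 to 0.13) were each lost without immature thymic cDC1 replicate 4 or immature thymic cDC2 replicate 3. Xbp1 (log2 fold change 0.38, SE 0.11, limma adjusted p = 0.0175) and Eif2ak3 (log2 fold change 0.53, SE 0.14, limma adjusted p = 0.00739) were also higher, that of Xbp1 being lost without immature thymic cDC2 replicate 2 (limma adjusted p = 0.101).

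Lower in immature thymic cDC2 were Chac1 (log2 fold change -1.47, SE 0.46, limma adjusted p = 0.024), Asns (log2 fold change -1.10, SE 0.44, limma adjusted p = 0.087), Creld2 (log2 fold change -0.79, SE 0.23, limma adjusted p = 0.0151), Sdf2l1 (log2 fold change -0.71, SE 0.27, limma adjusted p = 0.0649) and Hsp90b1 (log2 fold change -0.61, SE 0.20, limma adjusted p = 0.0293). Sdf2l1, a partner of BiP and its co-chaperones, read 4726, 5624, 6947 and 4633 in cDC1 and 2839, 3402 and 3717 in cDC2. Hsp90b1, the chaperone GRP94, read 44969, 45861, 52888 and 46359 and 29919, 31196 and 31799. All 5 genes had the cDC2 samples below those of cDC1. The call of Asns was lost without any 1 of splenic cDC1 replicates 4 and 5 combined, immature thymic cDC1 replicates 1, 3 and 4, immature thymic cDC2 replicates 1 and 2 or mature thymic cDC2 replicate 2 (limma adjusted p = 0.102 to 0.266), and that of Sdf2l1 without any 1 of immature thymic cDC1 replicates 2 and 3 or immature thymic cDC2 replicates 1 and 2 (limma adjusted p = 0.121 to 0.223). With samples of 1 library number averaged they were lost as well (limma adjusted p = 0.15 for Asns and 0.108 for Sdf2l1). Ern1 (log2 fold change 0.18, SE 0.17, limma adjusted p = 0.565), Atf6 (log2 fold change 0.22, SE 0.15, limma adjusted p = 0.373), Atf4 (log2 fold change -0.14, SE 0.21, limma adjusted p = 0.748) and Ddit3 (log2 fold change 0.35, SE 0.33, limma adjusted p = 0.561) were not called. In the same comparison 4 of 10 immediate-early and heat-shock genes were lower in cDC2 (300534 to 392274 summed in cDC1 and 187487 to 263853 in cDC2). Of 5 macrophage genes 4 were higher (2518 to 5291 and 8481 to 12773), and of 5 mature DC genes 4 were higher and 1 lower (3887 to 5301 and 21188 to 30577). Their part in the members' values was not tested.

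In mature thymic cells the members called higher in cDC2 were Ern1 (log2 fold change 1.23, SE 0.18, limma adjusted p = 5.08e-05), Atf6 (log2 fold change 0.86, SE 0.16, limma adjusted p = 4.20e-04), Atf5 (log2 fold change 1.42, SE 0.34, limma adjusted p = 0.00409), Sdf2l1 (log2 fold change 0.72, SE 0.29, limma adjusted p = 0.0747), Derl3 (1.78, on few reads), Sec61b (0.71) and Ddit3 (log2 fold change 0.83, SE 0.36, limma adjusted p = 0.0982). Sdf2l1 read 638, 485 and 721 in mature cDC1 and 1232, 1129.6 and 722 in mature cDC2, the highest cDC1 and the lowest cDC2 sample being nearly level. Xbp1 (log2 fold change 0.06, SE 0.12, limma adjusted p = 0.774), Eif2ak3 (log2 fold change 0.27, SE 0.15, limma adjusted p = 0.198) and Atf4 (log2 fold change 0.13, SE 0.23, limma adjusted p = 0.727) were not called, and Sel1l was lower (log2 fold change -0.37, SE 0.15, limma adjusted p = 0.0766). All macrophage genes tested, 5 of 5, were also higher in mature cDC2, with summed values of 209.7 to 769 in cDC1 and 2189.8 to 15023 in cDC2, and their part was not tested.

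Several of these calls were fragile. The 8 members called became 5, all higher, with edgeR and 3 without any 1 of mature cDC1 replicate 1 or mature cDC2 replicate 1, and 4 without mature cDC2 replicate 2. With TMM scaling 8 were higher and 0 lower, and with DESeq2 6 and 2. Under TMM the median over all genes tested was 0.19. The call of Sel1l was lost with edgeR (adjusted p = 0.114), with TMM scaling (adjusted p = 0.13) and without any 1 of mature thymic cDC1 replicates 1 and 3 or mature thymic cDC2 replicates 1 and 2 (limma adjusted p = 0.128 to 0.242), and that of Sdf2l1 without any 1 of mature thymic cDC1 replicates 1 and 2 or mature thymic cDC2 replicates 1 and 2 (limma adjusted p = 0.121 to 0.251). The call of Ddit3 was lost with edgeR (adjusted p = 0.119), with DESeq2 (adjusted p = 0.112) and without any 1 of splenic cDC1 replicate 2, immature thymic cDC1 replicates 1, 2 and 4, mature thymic cDC1 replicates 1 and 2, splenic cDC2 replicate 3, immature thymic cDC2 replicates 1, 2 and 3 or mature thymic cDC2 replicates 1, 2 and 3 (limma adjusted p = 0.101 to 0.278).

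**Figure D5:**
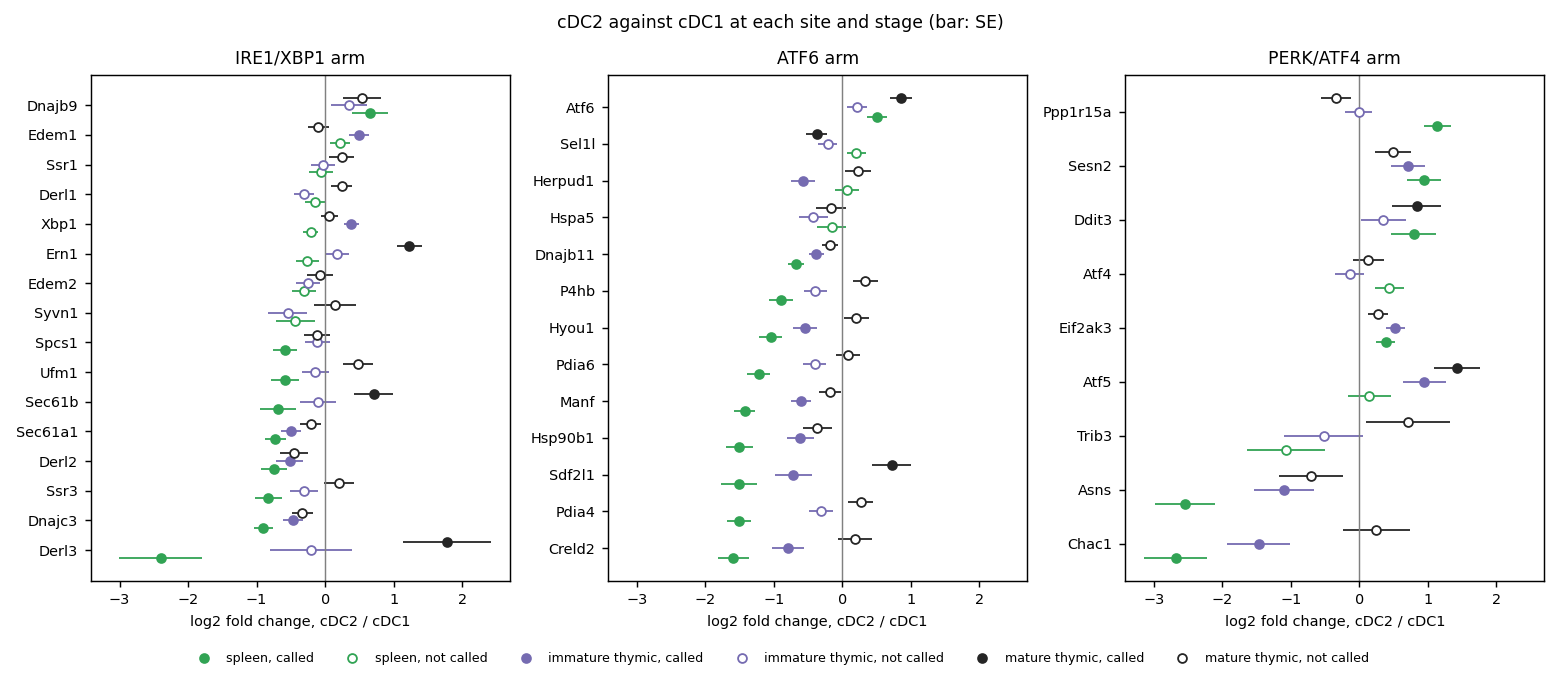
Log2 fold change (x axis, cDC2 over cDC1) of the 38 members by arm in the spleen, in immature and in mature thymic cells, with bars for 1 SE; filled points passed limma's adjusted p of 0.1. In the ATF6 arm most splenic points lie left of 0, and most mature points lie close to it, apart from Atf6, Sdf2l1 and Sel1l.

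Whether the effect of maturation differed between subsets was tested as the change in cDC2 minus that in cDC1. It did for 9 of the 38 genes, beside 18.6% of all genes tested. Of these 8 were positive and 1 negative. Ern1 fell in cDC1 and was not called in cDC2, and that difference was called (difference 1.05 on the log2 scale, SE 0.25, limma adjusted p = 0.00775). Sdf2l1 fell more in cDC1 than in cDC2 (difference 1.44 on the log2 scale, SE 0.39, limma adjusted p = 0.0187). Both held under every omission of 1 sample. That share of the members was 23.7%, not far from that of all genes. The median difference over all genes tested was 0.10 (0.16 under TMM), and over the 38 genes 0.45.

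A more positive change in cDC2 than in cDC1 was also called for Creld2 (difference 0.98 on the log2 scale, SE 0.34, limma adjusted p = 0.0608), Herpud1 (difference 0.81 on the log2 scale, SE 0.26, limma adjusted p = 0.0419), Hyou1 (difference 0.75 on the log2 scale, SE 0.25, limma adjusted p = 0.0566), P4hb (difference 0.73 on the log2 scale, SE 0.25, limma adjusted p = 0.06) and Atf6 (difference 0.64 on the log2 scale, SE 0.21, limma adjusted p = 0.0531). Of these, Herpud1 fell in cDC1 and was not called in cDC2, and the others fell less in cDC2. Derl1 differed in the same direction (difference 0.55 on the log2 scale, SE 0.21, limma adjusted p = 0.0958), and Edem1, which rose in cDC1 alone, in the other (difference -0.60 on the log2 scale, SE 0.21, limma adjusted p = 0.0646). Xbp1 (difference -0.32 on the log2 scale, SE 0.17, limma adjusted p = 0.217), Eif2ak3 (difference -0.25 on the log2 scale, SE 0.20, limma adjusted p = 0.453), Atf4 (difference 0.27 on the log2 scale, SE 0.31, limma adjusted p = 0.633) and Ddit3 (difference 0.48 on the log2 scale, SE 0.49, limma adjusted p = 0.578) were not called.

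Each of these 7 calls was lost on leaving out single samples. That of Creld2 was lost without any 1 of immature thymic cDC1 replicate 3, mature thymic cDC1 replicates 1 and 2, immature thymic cDC2 replicates 1 and 2 or mature thymic cDC2 replicates 1 and 2 (limma adjusted p = 0.11 to 0.155). That of Herpud1 was lost without any 1 of mature thymic cDC1 replicate 1, immature thymic cDC2 replicate 1 or mature thymic cDC2 replicate 2 (limma adjusted p = 0.101 to 0.105). That of Hyou1 was lost without any 1 of mature thymic cDC1 replicate 2, immature thymic cDC2 replicates 1 and 2 or mature thymic cDC2 replicate 2 (limma adjusted p = 0.113 to 0.133). That of P4hb was lost without any 1 of immature thymic cDC1 replicate 3, mature thymic cDC1 replicates 1 and 2, immature thymic cDC2 replicates 1 and 2 or mature thymic cDC2 replicates 1 and 2 (limma adjusted p = 0.103 to 0.152). That of Atf6 was lost without any 1 of immature thymic cDC1 replicate 1, mature thymic cDC1 replicate 1, immature thymic cDC2 replicate 3 or mature thymic cDC2 replicate 3 (limma adjusted p = 0.1 to 0.149). That of Derl1 was lost without any 1 of splenic cDC1 replicate 2, splenic cDC1 replicates 4 and 5 combined, immature thymic cDC1 replicates 1, 2, 3 and 4, mature thymic cDC1 replicates 1 and 2, splenic cDC2 replicate 1, immature thymic cDC2 replicates 1 and 2 or mature thymic cDC2 replicates 1, 2 and 3 (limma adjusted p = 0.102 to 0.245). That of Edem1 was lost without any 1 of immature thymic cDC1 replicates 2 and 3, mature thymic cDC1 replicates 1 and 3, immature thymic cDC2 replicates 1 and 2 or mature thymic cDC2 replicates 1 and 2 (limma adjusted p = 0.101 to 0.162). That of Derl1 was lost also with samples of 1 library number averaged (limma adjusted p = 0.109). The 9 calls became 3 without any 1 of immature thymic cDC2 replicate 1, mature cDC1 replicate 1 or mature cDC2 replicate 2, and 5 without immature thymic cDC2 replicate 2, immature thymic cDC1 replicate 3 or mature cDC2 replicate 1. With edgeR 8 were positive and 0 negative, and with TMM scaling 9 and 0, the negative call of Edem1 being lost (adjusted p by edgeR and limma = 0.109 and 0.1).

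The effect of the organ differed between subsets for 6 genes, which is 15.8% of the members, beside 6.25% of all genes tested. The rise from spleen to thymus was larger in cDC2 for Pdia4 (difference 1.20 on the log2 scale, SE 0.25, limma adjusted p = 0.00506), Hsp90b1 (difference 0.89 on the log2 scale, SE 0.28, limma adjusted p = 0.0834), Manf (difference 0.83 on the log2 scale, SE 0.21, limma adjusted p = 0.0261), Pdia6 (difference 0.82 on the log2 scale, SE 0.24, limma adjusted p = 0.0551) and Xbp1 (difference 0.60 on the log2 scale, SE 0.16, limma adjusted p = 0.0333). For Ppp1r15a the difference was negative, as it was lower in thymic than splenic cDC2 and level in cDC1 (difference -1.15 on the log2 scale, SE 0.28, limma adjusted p = 0.0195). Manf read 3188, 2749, 3069 and 3129 in splenic cDC1 and 1276, 1041 and 1075 in splenic cDC2, against means of 5877 ± 1104 (SD, n = 4) and 3843 ± 385 (n = 3) in the thymus. Ern1 (difference 0.44 on the log2 scale, SE 0.24, limma adjusted p = 0.45), Atf6 (difference -0.30 on the log2 scale, SE 0.21, limma adjusted p = 0.626), Eif2ak3 (difference 0.14 on the log2 scale, SE 0.19, limma adjusted p = 0.895), Atf4 (difference -0.58 on the log2 scale, SE 0.30, limma adjusted p = 0.408) and Ddit3 (difference -0.44 on the log2 scale, SE 0.47, limma adjusted p = 0.843) were not called.

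The call of Xbp1 was lost without immature thymic cDC2 replicate 2 (limma adjusted p = 0.113), that of Pdia6 without any 1 of immature thymic cDC1 replicates 1 and 4, splenic cDC2 replicates 2 and 3 or immature thymic cDC2 replicates 2 and 3 (limma adjusted p = 0.1 to 0.16) and that of Hsp90b1 without any 1 of splenic cDC1 replicates 1 and 2, splenic cDC1 replicates 4 and 5 combined, immature thymic cDC1 replicates 1, 2 and 4, splenic cDC2 replicates 1 and 3, immature thymic cDC2 replicates 1, 2 and 3 or mature thymic cDC2 replicate 2 (limma adjusted p = 0.106 to 0.25). With samples of 1 library number averaged the call of Hsp90b1 was lost as well (limma adjusted p = 0.154). Without immature thymic cDC2 replicate 2, 3 of the 6 calls were made. With lane 8 alone, which leaves a single splenic cDC2 sample, 0 were made.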

How the data were processed

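Gene expression was measured by bulk RNA sequencing (stranded mRNA libraries, paired reads) of 21 libraries. According to the study's methods and the submitters' processing notes, reads were trimmed with Cutadapt, aligned with STAR 2.6 to mm10, counted per Ensembl gene with HTSeq-count, and divided by size factors of DESeq2 1.24.0. The strand setting and the Ensembl release were not given in the sources used here. The deposited values are therefore a signal, the read counts of the authors scaled per library. They were whole multiples of 1 read within 0.001 for 100% of the values, so reads were recovered from them. Since these are not raw counts, limma was the main test.

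Splenic cDC1 replicates 4 and 5 had the same library number, lane and index and differed less than the other pairs of their group (chi-square per degree of freedom 2.525, others 26.85 or more), and were summed, which left 20 samples. Immature thymic cDC1 replicates 3 and 4 shared these labels too but differed by 100.5, others of the group by 24.62 to 93.62, and were kept as 2 samples. Averaging them was an alternative. limma 3.58.1 (R 4.3.3) was fitted to log2(value + 1) with 6 group means and an intensity trend, over 14966 genes that reached a normalized value of 10 in 3 or more samples. Fold changes are on that scale, which understates changes of low genes. A gene was called at a Benjamini-Hochberg adjusted p below 0.1 over all genes tested. Alternatives were edgeR 4.0.16 (quasi-likelihood) and DESeq2 1.42.0 on the recovered reads, other pseudocounts, filters, thresholds and scalings, lane, repeated libraries, the replicate block and omission of each sample. edgeR called 9509 and 8020 genes in the maturation comparisons of cDC1 and cDC2. The fits were tested on simulated data.

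The 38 members, the pathway and marker lists, their split into arms, and the tests were chosen with earlier results of these data known. Full statistics were given for 6 sensors and factors in each comparison, and for the members called without overlap between samples that rose or fell most, up to 5 in each direction. Pathway genes were named by up to 3 per role and direction in the maturation comparisons, with a mean value of at least 100. Ensembl identifiers were named through GENCODE M21, which held 37607 of 37734. Promoters came from RefSeq. Depth of 14266867 to 40119669 reads per library left genes with a handful of reads, such as Derl3 and Trib3, with wide errors, and counting error is the only error that a single library shows.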

Additional observations from a re-analysis of the deposited data

Results flagged for a closer look

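In groups of 4 samples, 10 of 76 tests found a sample far from the other 3 by its gap over the range of the group. If the tests were independent, chance would give about 1 in 20 (3.8 of 76). Genes of the same sample can move together, so no excess over chance can be read from this count. Of the 10, 5 lay in splenic cDC1 replicate 3 and 4 in immature thymic cDC1 replicate 3. In splenic cDC1, replicate 3 was highest for Edem2 (2230.3 against 1438 to 1514), Syvn1 (3098 against 1709 to 1912), Sec61a1 (6419 against 4846 to 5073), Hyou1 (10095 against 6789 to 7296) and Chac1 (165 against 96.8 to 105), and replicate 1 for Hspa5 (89023 against 61064 to 63318). In immature thymic cDC1, replicate 3 was highest for Manf (7513 against 5149 to 5550.2) and Trib3 (149.8 against 97.1 to 102), and lowest for Dnajb9 (1579 against 2078 to 2173) and Derl2 (1219 against 1421 to 1451).

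The effect of maturation differed between cDC2 and cDC1 by limma's test of the difference for Ern1 (1.05 on the log2 scale), Edem1 (-0.60), Derl1 (0.55), Atf6 (0.64), Hyou1 (0.75), Sdf2l1 (1.44), P4hb (0.73), Creld2 (0.98) and Herpud1 (0.81). The difference between thymus and spleen was unequal in the subsets for Xbp1 (0.60), Hsp90b1 (0.89), Pdia4 (1.20), Pdia6 (0.82), Manf (0.83) and Ppp1r15a (-1.15). Those that held with every single sample left out were Ern1 and Sdf2l1 for maturation, and Pdia4, Manf and Ppp1r15a for the organ.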

How the results depend on the processing

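For 114 gene results, 124 of 1866 values under alternative settings and 133 of 2280 with a sample left out no longer passed the threshold, and 2 and 4 newly passed. No called value changed sign. Values that were not called changed sign in 1 and 3 cases, namely Ern1 between splenic subsets in lane 8 alone (0.012 against -0.26 on the log2 scale), Ddit3 between thymic and splenic cDC2 without splenic cDC2 replicate 1 or 3 (0.12 and 0.026 against -0.13, and -0.55 to 0.12 over all samples left out) and Xbp1 between mature subsets without mature cDC1 replicate 1 (-0.015 against 0.06, and -0.015 to 0.11 over all samples left out). Counts of members called moved by more than 1.5 times under these settings. With a change above 2-fold also required, 23 of 35 members passed for maturation in cDC1, 8 of 20 and 16 of 28 for thymus against spleen in cDC1 and cDC2, and between the subsets 11 of 25 (spleen), 2 of 17 (immature thymus) and 3 of 8 (mature thymus), and 2 of 9 and 2 of 6 for the differences in maturation and tissue effects. At an adjusted p below 0.05, the counts were 3 of 8 between mature subsets and 3 of 9 for the difference in maturation. Between mature subsets, edgeR called 5 and limma without a filter 4. In lane 8 alone the counts were 15 (spleen) and 9 (immature thymic cells) between subsets, 2 for the difference in maturation and 0 for the difference in tissue effects. A single splenic cDC2 sample was left there and is assumed to vary like the other groups.

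With 1 sample left out, 33 to 36 and 25 to 29 members were called for maturation in cDC1 and cDC2, 17 to 23 and 24 to 28 for tissue, between subsets 20 to 25 (spleen), 14 to 19 (immature thymus) and 3 to 11 (mature thymus), 3 to 11 for the difference in maturation and 3 to 7 for the difference in tissue effects. The counts of 3 came from leaving out mature cDC1 replicate 1 or mature cDC2 replicate 1 (mature subsets), immature thymic cDC2 replicate 1, mature cDC1 replicate 1 or mature cDC2 replicate 2 (maturation), and immature thymic cDC2 replicate 2 (tissue).

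The labels do not say whether library numbers pair the samples, and the main test did not use them. Deviations of samples with the same number correlated at -0.15 to 0.46. Between cDC1 and cDC2 of replicates 2 and 3 they correlated at 0.25 and 0.46 in the spleen. In immature thymic cells these correlations were 0.26 and 0.28. For replicate 1 they were 0.006 in the spleen and -0.15 in the thymus. With the library number as a random replicate block (correlation 0.155) the counts were 35, 28, 19, 28, 25, 19, 9, 11 and 6 in the order above. As a fixed replicate block it gave 27 (spleen) and 18 (immature thymus), where a fit of those libraries with no block gave 21 and 21. What moved these counts was not tested. Depth limits statements on Derl3 in mature cDC1, Trib3 in the spleen and Asns in splenic cDC2.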
